A study of Mus musculus with 2 samples.

Results

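The genes described here encode the constitutive proteasome, its activators, its inhibitor and its assembly factors in mouse pancreatic islets. They were taken by symbol from the deposited table (Psma, Psmb, Psmc, Psmd, Psme, Psmf and Psmg followed by a digit), leaving out the immunoproteasome genes Psmb8, Psmb9 and Psmb10. This gave 47 of 17245 gene symbols, 15 of them core genes (Psma, Psmb) and 21 regulatory particle genes (Psmc, Psmd). RNA came from islets of wild-type mice (WT) and of mice labelled KO, which the series text describes as lacking the cytosolic DNA sensor cGAS in β-cells. Each genotype has 1 library, and the islets were kept in RPMI-1640 medium with serum after collagenase digestion. The driver of recombination, the deleted exon, the strain, sex and age of the mice and the number of mice behind a library are not given in the labels. With 1 library each there is no replicate check and no test, and each difference is between these libraries only.

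The proteasome degrades proteins tagged with ubiquitin. Its barrel-shaped core is built of outer rings of alpha subunits, encoded by Psma genes, and inner rings of beta subunits, encoded by Psmb genes, of which Psmb5, Psmb6 and Psmb7 carry the proteolytic sites. A regulatory particle of ATPases (Psmc) and non-ATPase subunits (Psmd) caps the core, binds ubiquitin chains, removes them and threads the substrate in. Psme genes encode other caps that open the core without ATP, and the Psmg products guide the building of the rings. Secretory cells such as β-cells depend on it to clear misfolded proteins drawn back from the endoplasmic reticulum.

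Values are deposited FPKM, that is, read or fragment numbers divided by gene length and by library total. Differences are log2((KO + 1)/(WT + 1)), called past 2-fold among genes that reached 1 FPKM in one of the libraries, as 12428 genes and 45 of the 47 members did. Whole reads recovered from the values (library totals of 14537660 for KO and 19097001 for WT) gave exact Clopper-Pearson 95% intervals of FPKM ratios, which cover counting error only. Cgas was at 0.521 FPKM in the KO-labelled library against 0.205 FPKM in WT. Both values lie below 1 FPKM and rest on at least 31 and 16 reads. RNA of the targeted gene was thus not lower in whole islets, whereas the deletion is described in β-cells only. This gene total cannot check the label, and every direction is given between the libraries as labelled. All 7 markers of the β-cell list were detected, with summed levels of 436088 and 394483 FPKM that rest mostly on Ins1 and Ins2, but 2 of the 7 lay above 0 and their median log2 ratio was -0.46. Ins1 was past 2-fold higher (237131 against 113793 FPKM), and the transcription factor gene Nkx6-1 (53.2 against 140 FPKM) and the glucose transporter gene Slc2a2 (72.3 against 152 FPKM) past 2-fold lower, in the KO-labelled library. The libraries differed in other cell types: all 5 acinar markers were lower in the KO-labelled library (summed 64.0 against 1340 FPKM), and all 4 endothelial (159 against 85.1 FPKM), all 4 fibroblast and pericyte (58.0 against 28.8 FPKM) and all 4 macrophage markers (116 against 53.5 FPKM) were above 0 on the log2 scale. In whole islets fewer cells of a type and less RNA per cell cannot be told apart.

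Proteasome genes were abundant and similar in the 2 libraries. The 47 members together held 0.297% of the summed FPKM in the KO-labelled library and 0.263% in the WT library. Of the 45 kept members, 34 (75.6%) had a log2 ratio above 0, against 54.4% of all expressed genes, and their median was 0.20 against 0.077 over all expressed genes. Members at least 2-fold higher numbered 2, Psme1 and Psmg3 (4.44%, against 6.98% of all expressed genes), and none was at least 2-fold lower (against 3.88%). At a 1.5-fold limit 9 members (20.0%) were higher, against 21.4% of all expressed genes, and 2 were lower, Psmd2 and Psme3 (4.44%, against 13.5%). The share of higher members was therefore close to the background at both limits, and that of lower members was below it. Across the 31 subunits of the core and regulatory particle, log2 FPKM in one library followed that in the other (Pearson r = 0.88, Spearman rho = 0.82, across genes that share libraries).

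**Figure D1:**
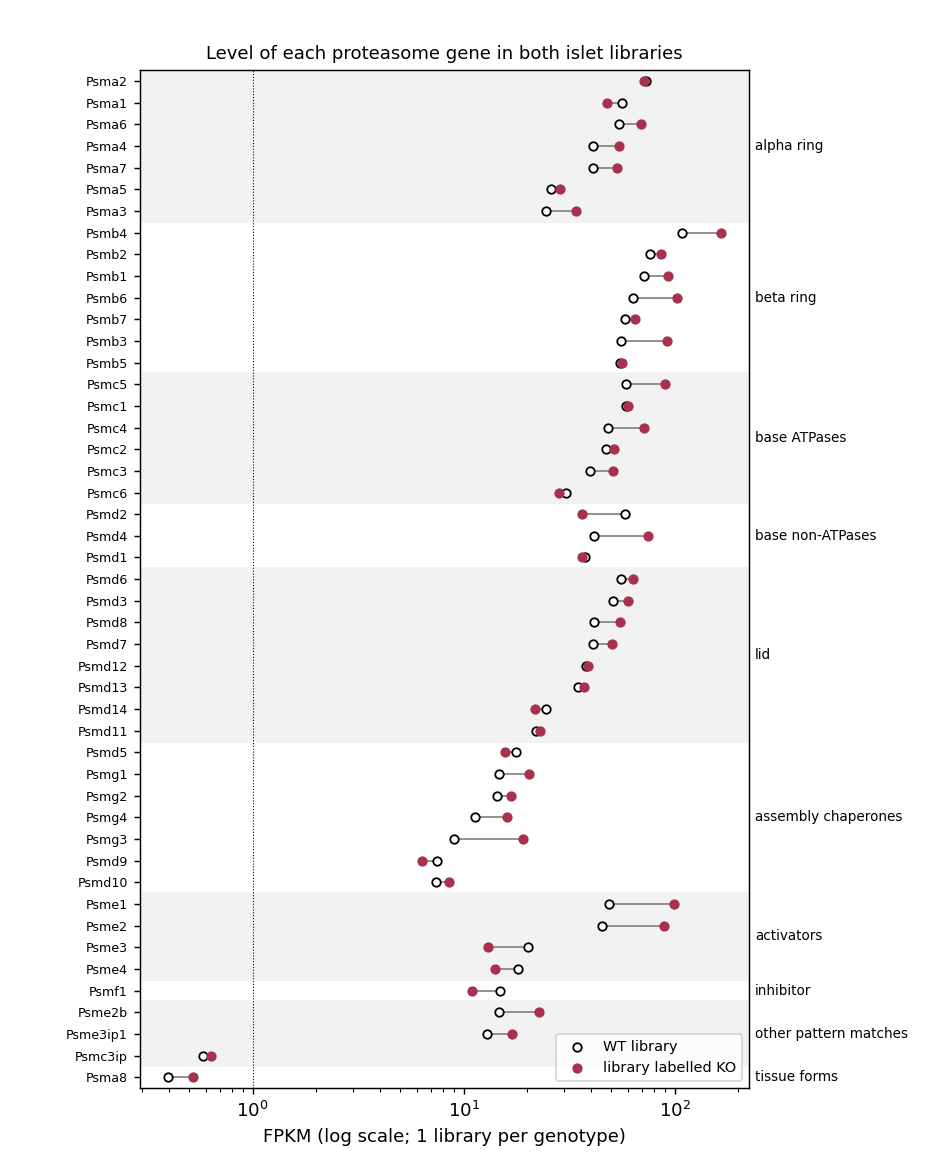
FPKM of each of the 47 genes (log axis) in the WT library (open circles) and the KO-labelled library (filled circles), grouped by role, with a line joining the values of a gene and a dotted line at 1 FPKM. Subunits of the core and regulatory particle lie between 21.9 and 166 FPKM in both libraries, assembly chaperones lie lower, and Psma8 and Psmc3ip lie below 1 FPKM.

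The alpha ring forms the gate of the core. Its 7 genes ranged from 28.8 to 71.6 FPKM in the KO-labelled library and from 24.7 to 73.5 FPKM in the WT library. Of these, 5 of 7 were above 0, against 54.4% of all expressed genes, with a median log2 ratio of 0.34. Psma3 was at 34.3 against 24.7 FPKM, a ratio of 1.39 (1.27 to 1.52), the highest of the ring. Psma1 was at 47.8 against 56.5 FPKM, 1.18-fold lower (1.08 to 1.29), the lowest of the ring and of all core genes. Psma2, the most abundant alpha gene, was at 71.6 and 73.5 FPKM, and Psma5, the least abundant in the KO-labelled library, at 28.8 and 25.9 FPKM. The intervals of both ratios include 1, so a difference was not detectable at this depth. Psma4, Psma6 and Psma7 had ratios of 1.34, 1.27 and 1.31. The testis form Psma8 was listed at 0.522 and 0.398 FPKM, below the floor, and rested on at least 3 reads in each library. Psmb11, the thymus form of a catalytic subunit, is not among the table's symbols.

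As deposited, all 7 beta-ring genes were above 0, against 54.4% of all expressed genes, with a median of 0.38 and a range from 0.027 to 0.72. Psmb4, a non-catalytic subunit, was the most abundant member in both libraries at 166 against 108 FPKM, a ratio of 1.53 (1.44 to 1.63). Psmb3, also non-catalytic, was at 91.7 against 55.4 FPKM (1.65, 1.5 to 1.82), the highest ratio of the core. Psmb1 and Psmb2, the other two non-catalytic genes, had ratios of 1.31 (1.21 to 1.41) and 1.12 (1.03 to 1.22). The catalytic genes differed among themselves. Psmb6, the caspase-like subunit, was at 102 against 63.6 FPKM (1.61, 1.5 to 1.73). Psmb7, the trypsin-like subunit, was at 64.8 against 58.3 FPKM (1.11, 1.02 to 1.21). Psmb5, the chymotrypsin-like subunit, was at 56.3 against 55.2 FPKM (1.02, 0.923 to 1.13). As deposited, the interval of Psmb6 therefore lies above those of its catalytic partners, beyond counting error. Once a trend on GC content and length, given with the comparison of core and regulatory particle, was removed, Psmb6 was close to Psmb7. The log2 ratios were then 0.0052 for Psmb6, -0.022 for Psmb7 and -0.65 for Psmb5. With the transcript nearest the recovered length they were 0.18, 0.046 and -0.52. The mean FPKM of the beta genes over that of the alpha genes was 1.84 in the KO-labelled library against 1.54 in WT. Without that trend the median log2 ratio was 0.0052 for the beta ring and 0.21 for the alpha ring. With the nearest transcript it was 0.18 and 0.15.

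Psmb5, Psmb6 and Psmb7 are the genes whose products Psmb8, Psmb9 and Psmb10 replace in the immunoproteasome, respectively. These interferon-inducible forms were at 39.8 against 18.8, 21.1 against 10.2 and 39.0 against 17.4 FPKM. The ratio of Psmb8 to Psmb5 was thus 0.707 against 0.340, of Psmb9 to Psmb6 0.206 against 0.160, and of Psmb10 to Psmb7 0.602 against 0.299. The macrophage, endothelial and stromal lists given above were higher in the same library, and their part in these ratios was not tested. With the GC and length trend removed, the log2 ratios of Psmb8, Psmb9 and Psmb10 went from 1.04, 0.98 and 1.12 to 0.63, 0.52 and 0.58. None was then past 2-fold.

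In the regulatory particle the 6 ATPase genes, whose products form the unfolding ring of the base, had a median of 0.24. As deposited, 5 of 6 were above 0, against 54.4% of all expressed genes. Psmc5 was at 90.4 against 59.0 FPKM (1.53, 1.43 to 1.64) and was the most abundant regulatory gene in both libraries. Psmc4 was at 71.9 against 48.3 FPKM (1.49, 1.28 to 1.73). Psmc6 was the only ATPase gene below 0 as deposited, at 28.4 against 30.6 FPKM, with a ratio between 0.843 and 1.02 by its interval. This did not hold without the GC and length trend, where Psmc6 was at 0.24 and Psmc1 at -0.056. With the nearest transcript they were at 0.27 and -0.031. Psmc3 had a ratio of 1.29 (1.19 to 1.40), and Psmc1 and Psmc2 had ratios of 1.02 and 1.10. Psmc3ip, which matches the symbol pattern but encodes a factor of meiotic recombination and no subunit, was below the floor at 0.637 and 0.582 FPKM.

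The widest spread within the particle was among the 3 non-ATPase subunits of the base. Psmd4, a ubiquitin receptor, was at 74.6 against 41.7 FPKM, 1.79-fold higher (1.65 to 1.94). Psmd2, a scaffold that docks ubiquitin shuttle proteins, was at 36.4 against 58.0 FPKM, 1.59-fold lower (1.51 to 1.69). Psmd1, the companion scaffold, was at 36.3 and 37.5 FPKM (0.970, 0.910 to 1.03). Psmd4 was at 2.05 times the level of Psmd2 in the KO-labelled library and at 0.718 times it in the WT library. Ranked by FPKM among the 31 subunits, Psmd2 stood at place 9 in the WT library and 25 in the KO-labelled library, and Psmd4 at 18 and 7. These were the members furthest from 0 on either side of the regulatory list. Once the dependence on GC content and length, given with the comparison of core and regulatory particle, was taken out, their log2 ratios went from 0.83 to 0.51 for Psmd4 and from -0.66 to -0.65 for Psmd2.

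The lid removes ubiquitin chains from the substrate. Its 8 genes had a narrow range, from -0.17 to 0.40, with a median of 0.14. As deposited, 7 of 8 were above 0, against 54.4% of all expressed genes. Without the GC and length trend the median was 0.12. Psmd3 and Psmd13 then went from 0.24 and 0.094 to -0.19 and -0.13, so the count above 0 depends on that trend. Psmd8 was at 55.2 against 41.6 FPKM (1.33, 1.22 to 1.44) and Psmd7 at 50.6 against 41.2 FPKM (1.23, 1.13 to 1.33). Psmd14, the deubiquitinase itself, was at 21.9 against 24.7 FPKM, 1.13-fold lower (1.00 to 1.27). It was the least abundant subunit in the KO-labelled library, and Psmd11 the least abundant in the WT library (23.1 and 22.1 FPKM). Psmd3 and Psmd6 had ratios of 1.18 and 1.14, and Psmd11, Psmd12 and Psmd13 of 1.04, 1.02 and 1.07.

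**Figure D2:**
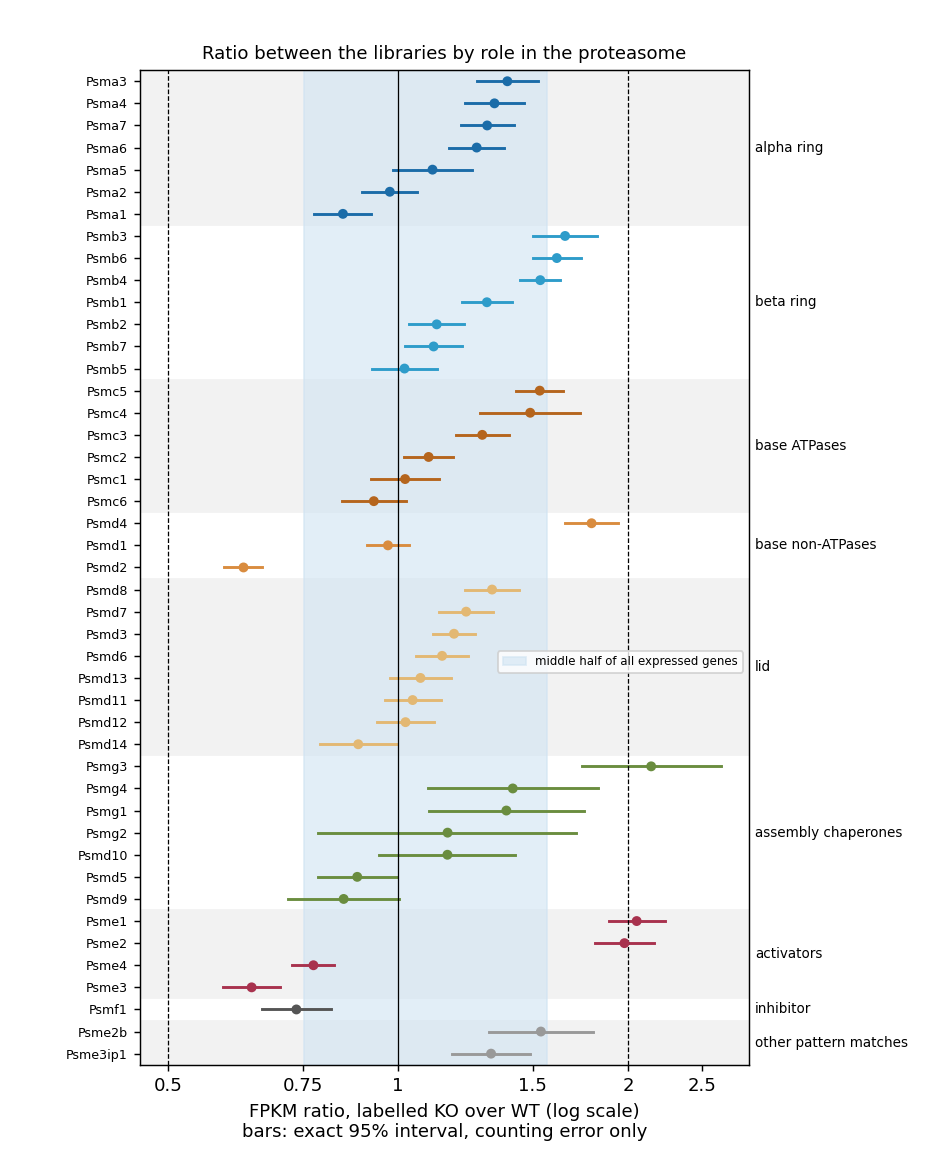
Ratio of FPKM in the KO-labelled library to that in the WT library (log axis) for the 45 genes kept by the floor, with exact 95% intervals as bars; dashed lines mark 2-fold and the shaded band is the middle 50% of all expressed genes (0.753 to 1.56). Most subunits lie within the band, with Psme1, Psme2, Psmg3, Psmd4, Psmb3 and Psmb6 to the right of it and Psmd2, Psme3 and Psmf1 to the left.

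The comparison of core with regulatory particle asked whether the parts of the proteasome differed together between the libraries. As deposited, 12 of 14 core genes and 14 of 20 regulatory genes lay above 0, against 54.4% of all expressed genes. The medians were 0.36 for the core and 0.11 for the regulatory particle, a difference of 0.25, while the values of the sides overlapped over most of their range (-0.24 to 0.72 and -0.66 to 0.83). The mean level of the 14 core genes was 72.8 against 57.5 FPKM, that of the 17 regulatory subunits 50.1 against 42.9 FPKM. The core therefore stood at 1.46 times the regulatory mean in the KO-labelled library and 1.34 times in the WT library, and by medians the order of the libraries was turned, at 1.31 and 1.35 times. Scaling each library to a sum of 1000000 lowered the median of all expressed genes by 0.13, and relative to that median the core lay 0.28 higher as deposited and 0.26 after that scaling, the regulatory particle 0.035 and 0.018 higher.

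Transcript length differed between the sides, whereas their median GC content was similar (49.2% for the core, 49.6% for the regulatory particle). The core value joins an alpha ring at 45.0% and a beta ring at 52.2%. The trend removed below takes GC content and length together, so the part of each was not tested. Core transcripts had a median length of 1162 nucleotides and regulatory transcripts 1887, and 11 of 14 core genes but 6 of 20 regulatory genes were shorter than the median of both together. Across all 12374 expressed genes with a GENCODE transcript the log2 ratio decreased with length (Spearman rho = -0.39) and increased with GC content (0.42), and across the 45 members the values were -0.62 and 0.51, as descriptions over genes of the same libraries. Among 5 equal classes of expressed genes by length, the shortest, up to 1745 nucleotides, had a median of 0.47, above that of the core. With a trend on GC content and length removed, the core median was 0.099 and the regulatory median 0.17, a difference of -0.072. With the transcript nearest the recovered length in place of the longest one, a choice made after seeing the data, the medians were 0.16 and 0.16 and the difference -0.0017. The higher core median therefore did not hold once the trend was removed. Single genes moved unequally: Psmb6 went from 0.68 to 0.0052, Psmb3 from 0.72 to 0.13 and Psmb5 from 0.027 to -0.65, whereas Psma3 went from 0.46 to 0.83 and Psma1 from -0.24 to -0.22.

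**Figure D3:**
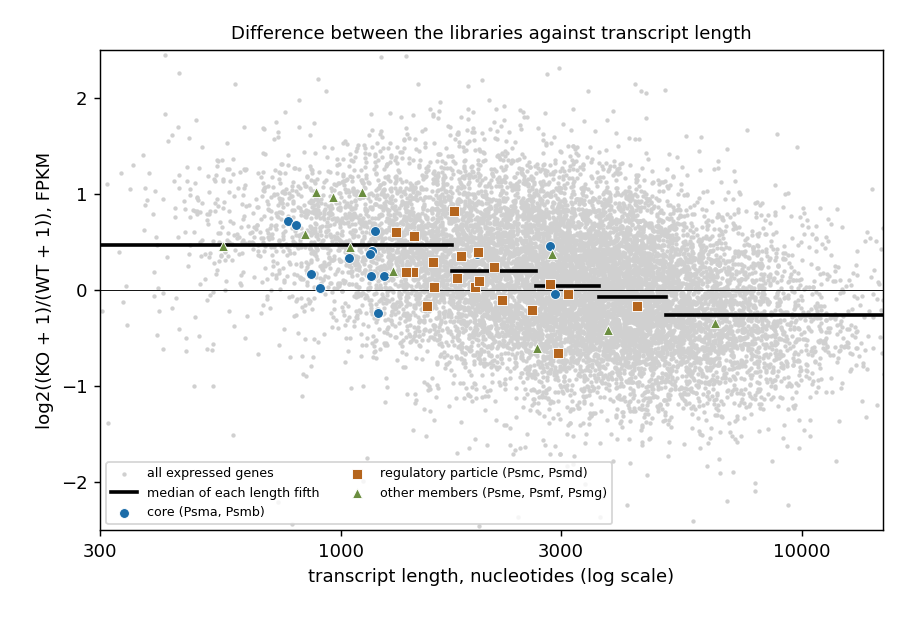
Log2 difference between the libraries against transcript length (log axis) for all expressed genes within the axes (grey), core genes (blue circles), regulatory particle genes (brown squares) and the other members (green triangles). Black lines give the median of each of 5 equal length classes, which goes from 0.47 in the shortest to -0.26 in the longest; most core genes lie in the shortest class.

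**Figure D4:**
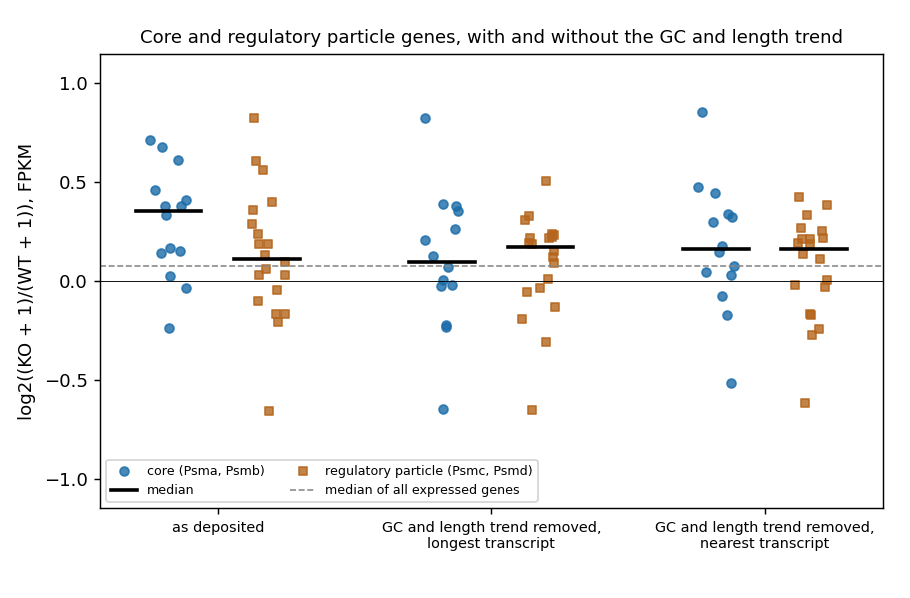
Log2 differences of the 14 core and 20 regulatory genes as deposited and without the GC and length trend, using the longest transcript or the one nearest the recovered length; black bars are medians and the dashed line is the median of all expressed genes. The medians of 0.36 and 0.11 as deposited become 0.099 and 0.17, and 0.16 and 0.16.

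Promoter sequences of the sides were compared without using the log2 ratios. RefSeq windows on GRCm38.p6 from 250 bases before to 50 bases after the start were matched for 39 of the 47 genes. The first listed window of each gene was used. Both strands were searched for TGANNNNGC (the antioxidant response pattern bound by Nfe2l1 and Nfe2l2 with small Maf proteins), CCAAT (bound by NF-Y), CCGGAAG (an ETS-family core) and, added later, GAAANNGAA (an interferon response pattern). CCGGAAG was in 10 of 18 regulatory promoters (55.6%, Psmc3ip included) and in 0 of 11 core promoters, against 18.1% of 9959 promoters of expressed genes and 9.12% of all 27025. TGANNNNGC was in 8 of 11 core (72.7%) and 8 of 18 regulatory promoters (44.4%), against 42.8% of expressed and 41.4% of all promoters. CCAAT was in 6 of 11 and 6 of 18, against 38% and 37.9%, and GAAANNGAA in 2 of 11 and 2 of 18, against 7% and 8.57%. No window was matched for Psma8, Psmb1, Psmb2 and Psmb7 of the core or for Psmc3, Psmd3 and Psmd7 of the regulatory particle. The shares therefore describe only the genes with a window. These are matches of letters, not sites.

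The windows of the core and regulatory genes with the highest and lowest log2 ratio are shown, 5′ to 3′ on the gene's strand, with every match in capitals; no matches overlapped. They lie at chr11:97703184-97703483 (Psmb3, plus strand), chr7:114276067-114276366 (Psma1, minus strand), chr3:95042565-95042864 (Psmd4, minus strand) and chr16:20651402-20651701 (Psmd2, plus strand). The Psmd2 window lies downstream of the RefSeq gene start at 20651122, so its positions refer to another start.
Psmb3: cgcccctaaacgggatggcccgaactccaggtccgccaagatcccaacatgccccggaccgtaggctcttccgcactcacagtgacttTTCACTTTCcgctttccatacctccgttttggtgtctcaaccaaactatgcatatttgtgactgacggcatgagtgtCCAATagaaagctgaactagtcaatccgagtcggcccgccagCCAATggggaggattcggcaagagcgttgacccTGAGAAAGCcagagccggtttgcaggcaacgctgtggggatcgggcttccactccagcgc
Psma1: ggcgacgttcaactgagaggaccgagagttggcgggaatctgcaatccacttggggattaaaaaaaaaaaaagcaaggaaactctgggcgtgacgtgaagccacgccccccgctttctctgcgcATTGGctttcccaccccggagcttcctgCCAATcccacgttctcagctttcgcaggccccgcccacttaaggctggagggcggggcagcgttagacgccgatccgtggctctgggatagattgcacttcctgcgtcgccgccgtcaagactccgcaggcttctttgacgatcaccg
Psmd4: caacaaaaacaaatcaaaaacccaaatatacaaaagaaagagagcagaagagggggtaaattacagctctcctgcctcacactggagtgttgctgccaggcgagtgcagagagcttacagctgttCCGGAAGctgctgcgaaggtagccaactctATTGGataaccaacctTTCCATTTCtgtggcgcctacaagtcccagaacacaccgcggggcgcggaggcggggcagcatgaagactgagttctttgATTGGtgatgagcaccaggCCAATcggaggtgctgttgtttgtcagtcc
Psmd2: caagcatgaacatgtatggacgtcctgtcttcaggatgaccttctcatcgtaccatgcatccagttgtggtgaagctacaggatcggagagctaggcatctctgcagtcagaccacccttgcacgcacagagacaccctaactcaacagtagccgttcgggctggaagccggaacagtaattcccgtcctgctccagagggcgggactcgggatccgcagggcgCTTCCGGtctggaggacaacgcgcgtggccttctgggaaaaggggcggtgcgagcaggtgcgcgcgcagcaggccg
Psmb3 holds CCAAT 85 and 43 bases before the start, TGANNNNGC 10 bases before it and GAAANNGAA 162 bases before it, and Psma1 holds CCAAT only. Psmd4 and Psmd2, at opposite ends of the regulatory list, share CCGGAAG, 125 and 26 bases before the start used. Psmd4 also holds CCAAT 95 bases before the start and from bases 2 and 21 after it, and GAAANNGAA 79 bases before it. Psmd2 holds CCGGAAG only.

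The activators differed most among themselves. Psme1 and Psme2 encode the interferon-inducible cap that favours peptides for antigen presentation, Psme3 a related nuclear cap, and Psme4 a large nuclear cap that acts in chromatin and DNA repair. Psme1 was at 99.7 against 48.6 FPKM (2.05, 1.89 to 2.23) and Psme2 at 89.2 against 45.1 FPKM (1.98, 1.81 to 2.16), so the genes of this cap were nearly equal in each library and higher in the KO-labelled library by nearly the same ratio. Psme3 was at 13.0 against 20.2 FPKM, 1.55-fold lower (1.43 to 1.70), and Psme4 at 14.0 against 18.1 FPKM, 1.29-fold lower (1.21 to 1.38). Psme1 was thus 7.68 times Psme3 in the KO-labelled library and 2.41 times in the WT library. Without the GC and length trend the log2 ratios were 0.50 for Psme1, 0.51 for Psme2, -0.54 for Psme3 and 0.17 for Psme4, so the difference of Psme1 was no longer past 2-fold and Psme4 lay on the other side of 0. The order of Psme1 and Psme2 above Psme3 held. The macrophage markers Adgre1, Cd68, Csf1r and C1qa, of which C1qa was highest (88.7 against 35.6 FPKM), were higher in the same library, and their part in the values of Psme1 and Psme2 was not tested.

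Psme1 and Psme2 lie 5912 bases apart on chromosome 14 (55578494 to 55581527 and 55587440 to 55591101) and are read from opposite strands, and Psme3 lies on chromosome 11 (101316213 to 101323537). Their start windows are printed because the first 2 genes go together and Psme3 goes the other way; they lie at chr14:55578244-55578543 (plus strand), chr14:55591052-55591351 (minus strand) and chr11:101315963-101316262 (plus strand), with matches in capitals as above.
Psme1: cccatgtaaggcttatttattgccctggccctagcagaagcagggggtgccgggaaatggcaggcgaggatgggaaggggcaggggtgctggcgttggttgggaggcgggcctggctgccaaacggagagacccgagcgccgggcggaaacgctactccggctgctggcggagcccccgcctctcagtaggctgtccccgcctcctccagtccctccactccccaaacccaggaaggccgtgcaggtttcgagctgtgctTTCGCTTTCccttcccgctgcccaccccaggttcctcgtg
Psme2: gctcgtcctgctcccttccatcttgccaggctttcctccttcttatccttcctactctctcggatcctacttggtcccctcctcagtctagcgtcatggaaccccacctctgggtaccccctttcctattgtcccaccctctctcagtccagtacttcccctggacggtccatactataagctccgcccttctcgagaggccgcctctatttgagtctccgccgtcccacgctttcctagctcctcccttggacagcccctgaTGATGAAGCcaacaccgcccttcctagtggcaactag
Psme3: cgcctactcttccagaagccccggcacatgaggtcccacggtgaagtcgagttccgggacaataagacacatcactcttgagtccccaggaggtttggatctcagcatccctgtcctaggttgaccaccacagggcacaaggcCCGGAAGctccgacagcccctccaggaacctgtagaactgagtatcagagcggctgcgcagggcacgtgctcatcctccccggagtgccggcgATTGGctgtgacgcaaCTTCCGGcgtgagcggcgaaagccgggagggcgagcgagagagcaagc
Psme1 holds GAAANNGAA on the minus strand from base 11 after the start, Psme2 holds TGANNNNGC from base 14 after it, and Psme3 holds CCAAT and CCGGAAG. No letters of GAAANNGAA were in the Psme2 and Psme3 windows, which says nothing of sites elsewhere.

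The 2 remaining names that resemble activators are not separate caps. Psme2b, on chromosome 11, matches the Psme2 transcript at 99.4% of bases over 794 aligned bases, so reads of these copies cannot be assigned with certainty; it was at 22.6 against 14.7 FPKM (1.54, 1.31 to 1.80). Psme3ip1 encodes a protein that binds Psme3 and was at 17.0 against 12.8 FPKM (1.32, 1.18 to 1.49). Psmf1, which encodes a protein known as an inhibitor of the core in vitro, was at 10.9 against 14.9 FPKM, 1.36-fold lower (1.23 to 1.51).

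The assembly chaperones were less abundant than the subunits, at 6.34 to 20.4 FPKM in the KO-labelled library and 7.37 to 17.8 FPKM in the WT library. Psmg3, whose product works with that of Psmg4 in building the alpha ring, was at 19.2 against 8.96 FPKM (2.14, 1.74 to 2.65). It was the chaperone past 2-fold, and its log2 ratio of 1.02 became 0.35 without the GC and length trend. Its partner Psmg4 was at 16.0 against 11.3 FPKM (1.41, 1.09 to 1.83), and the other ring-building pair, Psmg1 and Psmg2, had ratios of 1.39 and 1.16. Psmd5, Psmd9 and Psmd10 encode chaperones of the regulatory base. Psmd9 was at 6.34 against 7.47 FPKM (0.849, 0.718 to 1.00), Psmd5 at 15.7 against 17.8 FPKM and Psmd10 at 8.55 against 7.37 FPKM. As deposited, the 4 Psmg genes were all above 0 and of the 3 Psmd chaperones only Psmd10 was, against 54.4% of all expressed genes. This contrast did not hold without the GC and length trend, where Psmg4 was at -0.29 and Psmd5 at 0.22. With the nearest transcript they were at -0.025 and -0.24.

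Other genes of the pathway were taken from lists set down with the design. Of 9 listed factors of the proteasome outside the symbol pattern 8 are in the table. None was past 2-fold, against 6.98% of all expressed genes higher and 3.88% lower, so for a list this short the count says little. The maturation factor Pomp was at 103 against 61.9 FPKM (1.66, 1.52 to 1.82), the small lid subunit Sem1 at 147 against 94.7 FPKM (1.55, 1.42 to 1.70) and Txnl1, a thioredoxin-like protein bound to the regulatory particle, at 32.8 against 45.7 FPKM. With the GC and length trend removed, the log2 ratio of Txnl1 went from -0.47 to 0.021, that of Pomp from 0.72 to 0.90 and that of Sem1 from 0.63 to 0.82. Among 6 shuttle proteins, which carry ubiquitinated substrates to the proteasome, 2 were at least 2-fold lower (against 3.88% of all expressed genes) and 4 of 6 lay below 0. Ubqln2 was at 23.4 against 49.1 FPKM and Ddi2, a protease that activates Nfe2l1, at 1.48 against 4.41 FPKM, with Rad23b short of the limit at 22.3 against 45.1 FPKM. Without the GC and length trend the shuttle median went from -0.71 to -0.45, and neither call held, at -0.96 for Ubqln2 and -0.75 for Ddi2. With the nearest transcript Ddi2 was at -1.13, past 2-fold, and Ubqln2 at -0.93.

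Of the genes that make and attach ubiquitin, Rps27a, a fusion of ubiquitin with a ribosomal protein, was at 250 against 139 FPKM, whereas the polyubiquitin gene Ubb was at 535 against 616 FPKM. The activating enzymes Uba1 (41.8 against 65.3 FPKM) and Uba6 (1.73 against 5.26 FPKM) were lower, Uba6 past 2-fold as deposited. Its log2 ratio of -1.20 became -0.59 without the GC and length trend, short of that limit. None of 6 genes of the p97 segregase, which extracts ubiquitinated proteins, was past 2-fold, against 6.98% of all expressed genes higher and 3.88% lower. Its ATPase Vcp was at 84.6 against 115 FPKM, and its adaptors Nploc4, Ubxn1 and Nsfl1c were at 14.5 against 22.2, 71.6 against 47.7 and 64.0 against 45.6 FPKM. Removing the GC and length trend took the log2 ratios of Ubxn1 and Nsfl1c from 0.58 and 0.48 to 0.081 and 0.13. Those of Nploc4 and Vcp went from -0.58 and -0.44 to -0.60 and -0.33. Among 6 regulators of proteasome genes none was past 2-fold, against the same shares of all expressed genes. For lists this short such counts say little. Nfe2l1, the transcription factor that raises proteasome genes when proteasome activity is short, was at 44.6 against 68.4 FPKM (0.651, 0.624 to 0.678), its partner Mafg at 25.3 against 14.0 FPKM, and Ngly1, which removes glycans from Nfe2l1, at 7.63 against 11.2 FPKM. After removal of the same trend the log2 ratio of Ngly1 went from -0.50 to -0.15, those of Nfe2l1 and Mafg from -0.61 and 0.81 to -0.66 and 0.76.

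Reads of some members are less certain. In GENCODE M21, 19 members share exonic bases with another gene, have an annotated pseudogene copy of at least 90% identity over at least 50% of the transcript, or have a near-identical gene, and whether counting used strand is not given. Psmb3 had 6 such pseudogene copies, Psma5, Psmb5, Psmc1 and Psmd2 had 2 each, and Psme1 and Psme2 had 1 each. Psmg3 shares 280 exonic bases with Gm26938 on the same strand. Without the 19 the core minus regulatory difference was 0.17. Psme1 and Psmg3, the members past 2-fold, are both among the 19, so that omission says nothing of their calls.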

How the data were processed

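RNA from islets was sequenced as 1 library per genotype, WT and KO, with groups taken from the genotype field. The authors deposited FPKM values in 1 table, with build GRCm38 (mm10) per the submitters' processing notes; which aligner, counter, annotation, strand setting or filter was used is not stated there or in the labels. No deposited value was rescaled. Whole reads were searched for as FPKM times a length of 60 to 30000 nucleotides times 1 total per library. They were found for 17178 of 17245 genes (99.6%), within 1e-05 of a read plus 1e-09 times the reads. The smallest whole reads were used, so an interval can be too wide; reads without molecular identifiers are not independent molecules. In simulated data (a library against WT, 16063 genes) 100 genes were set 4-fold higher and 100 were set 4-fold lower. Of these, 100% and 97% were called. The calling of smaller changes, such as 2-fold or 1.5-fold, was not tested. Of 2176 read numbers checked there, 85.1% were recovered as equal and 99.3% to a whole multiple.

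The pseudocount was 1 FPKM, so changes of low genes are understated, and the floor was 1 FPKM in the higher library. No test or p-value was computed and no count test was run. A lowess trend (fraction 0.3, 3 iterations, statsmodels 0.14.6) on GC content and then log2 length of the longest protein-coding GENCODE M21 transcript was removed as an alternative. Others were a pseudocount of 0.1 or 5, a floor of 5 FPKM or none, 3 scalings, means, and leaving out members. Copies were searched with BLAST 2.17.0+. Coordinates and promoters came from RefSeq on GRCm38.p6. The members and lists were chosen with earlier results of these data known. All members may be named; of the other lists the 3 widest were named, except that some listed ubiquitin genes are not reported here, and Vcp was added with its values known.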

Additional observations from a re-analysis of the deposited data

How the results depend on the processing

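A median counted as moved when it shifted by more than 0.12, the median of the members' counting half-widths on the log2 scale, and a count when it changed by more than 1.5 times. Pseudocounts, floors and means kept both medians within that limit, and so did leaving out Psmd5, Psmd9 and Psmd10; leaving out Psmc3ip and Psma8 changed nothing at this floor, and Psmb11 has no row. With each library scaled to a sum of 1000000 the core, regulatory and all-member medians were 0.21, -0.032 and 0.065, with equal sums without the 20 highest genes 0.21, -0.036 and 0.060, and their difference stayed at 0.25 and 0.24. These scalings also turned the balance of 2-fold calls over all genes, of which 64.3% were higher as deposited, 46.5% and 44.3% after them. With the GC and length trend removed the core median was 0.099 and the difference -0.072, and with the nearest transcript 0.16 and -0.0017. The 2 members past 2-fold higher became 0 with a pseudocount of 5, under all 3 scalings and with either trend removed. Both are among the 19 less certain members, and leaving those out can only lower such counts. The 9 members at least 1.5-fold higher became 4 under the sum of 1000000 and under equal sums, 1 and 3 with the trend removed (longest and nearest transcript), and 3 without the 19. The 2 at least 1.5-fold lower became 1 with a pseudocount of 5, with the nearest-transcript trend and without the 19. The cause of these shifts was not tested. Single members changed sign most often with the trend removed, 13 of 45, against at most 7 of 45 under the other settings apart from the nearest-transcript trend (10). The nearest-transcript trend and the omission of the 19 members were added after seeing the data. The widest intervals were those of Psma8, Psmc3ip and Psmg2. For Psma8 and Psmg2 the smallest whole reads came from lengths of 395 and 218 nucleotides, against transcripts of 1692 and 1300. Their intervals can therefore be wider than counting error. No paired analysis was possible because each genotype has 1 library.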
